A study of Mus musculus with 4 samples.

Results

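The cells described here are neurons of the developing mouse arcuate nucleus (ARC) that carried RNA of the homeobox factor Otp together with RNA of Npy or Agrp, the peptides of the hunger-promoting Agrp-neurons. They were chosen by counts of unique molecular identifiers (UMIs), each of which stands for 1 captured RNA molecule. A cell was taken when it held at least 1 Otp UMI, at least 1 UMI of Npy and Agrp together, at least 2 UMIs of the neuronal gene Stmn2 and fewer than 3 of Pomc. This gave 141 cells, which were 2.22% (95% interval 1.87 to 2.61) of the 6351 cells kept after quality filters, 3.52% of the 4006 cells with at least 2 Stmn2 UMIs, and 19% (16.2 to 22.01) of the 742 Otp neurons. The 601 Otp neurons without an Npy or Agrp UMI served as the closest comparison, and the 3264 other neurons, nearly all without Otp, as the wider one. The limit on Pomc was not asked of the 601. The 8 Otp neurons with Npy or Agrp and 3 or more Pomc UMIs fell among the other neurons, so they are not in the 742.

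The study sequenced single cells of the ARC of 6 C57BL/6 embryos of the Pomc-eGfp genotype at embryonic day 15 (E15), which the sample titles give as E15.5. Tissue was cut out of the ventral hypothalamus by the position of the green fluorescence of the Pomc reporter, combined over the embryos and dissociated with papain. The 4 deposited samples are sequencing runs of 1 library, and cells carry no mark of their run or embryo. All groups compared below therefore share 1 genotype, 1 age and 1 library, there is no replicate, and every interval covers counting error only.

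In the adult ARC, Agrp-neurons sense circulating signals of energy state, raise food intake through NPY and AgRP, and inhibit their targets, Pomc-neurons among them, with GABA. Otp is a homeodomain factor of several peptide neurons of the hypothalamus, and Isl1, Bsx and Tbx3 are further factors known from ARC peptide neurons. NPY acts on its own family of receptors, AgRP antagonizes the melanocortin receptors, and somatostatin, made from Sst, is a peptide of a subset of adult Agrp-neurons.

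Both peptide genes with a window in the RefSeq promoter table are shown first, because the counts of these genes chose the cells (Npy) or divided them (Sst). Npy lies on chromosome 6 (GRCm38, 49822710 to 49829507, plus strand), Sst on chromosome 16 (23889573 to 23890958, minus strand), Otp on chromosome 13 (94875602 to 94885130, plus strand) and Calcr on chromosome 6 (3685680 to 3764714, minus strand). The 250 bases before the annotated Npy start, chr6:49822460-49822709 on the plus strand of GRCm38.p6, hold none of the 3 motifs that were searched on both strands. These were the homeodomain core motif spelled TAATTA, the cyclic AMP response element (CRE) spelled TGACGTCA, and the core promoter box spelled TATAAA.
Npy, 250 bases before the start: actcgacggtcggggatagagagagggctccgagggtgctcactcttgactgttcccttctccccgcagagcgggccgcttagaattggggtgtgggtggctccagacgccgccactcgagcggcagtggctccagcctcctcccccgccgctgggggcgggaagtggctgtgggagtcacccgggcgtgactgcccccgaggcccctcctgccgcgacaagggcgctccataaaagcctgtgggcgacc
Sst, 30 bases around the CRE: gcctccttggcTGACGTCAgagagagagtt
The Sst stretch is chr16:23890874-23890903 on the minus strand, its capitals mark the CRE, and the first base of the CRE lies 48 bases before the RefSeq start. That start lies 114 bases inside the gene as printed above from GENCODE, so the stretch falls within the longer GENCODE gene. A CRE was found in a window of 1.77% of all 27025 genes with windows of this length, TAATTA in 5.65% and TATAAA in 14.3%, or in 1.55%, 4.84% and 12.4% of the 32851 windows. Of 21 genes that led the cells' higher genes below and had a window, 1 held the CRE, 2 held TAATTA and 4 held TATAAA. These matches describe letters only.

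The values that chose the cells are given as a description. Npy held most of the peptide RNA, with 1420 UMIs in 120 of the 141 cells, and ranged from 0 to 141 UMIs per cell with a median of 3. It was at 0 in 21 cells, at 1 in 31, at 2 in 13, between 3 and 9 in 42, and at 10 or more in 34. The 13 cells with most Npy held 56.3% of it, so a small part of the group carried most of the transcript. Agrp was far sparser, with 136 UMIs in 54 cells and a range of 0 to 10. Otp ranged from 1 to 21 UMIs with a median of 4, and Stmn2 from 2 to 58 with a median of 5. Pomc was at 0 in 101 cells, at 1 in 29 and at 2 in 11.

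Both peptides met in 33 cells, 21 cells had Agrp without Npy, and 87 had Npy without Agrp. Sst was found in 44 cells, 41 of them with Npy and without Agrp, and 3 with Agrp and without Npy. No cell held all 3 peptides. Among its 44 cells Sst was often abundant, at a median of 8.5 UMIs and a maximum of 38.

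**Figure D1:**
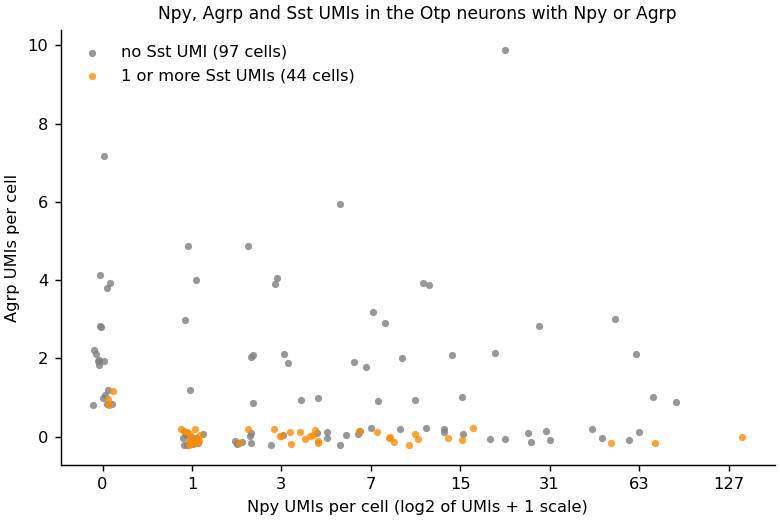
Each point is 1 of the 141 cells, with its Npy UMIs across (log2 of UMIs + 1 scale) and its Agrp UMIs upward, spread by a small random shift so that cells with equal counts can be seen; orange marks the 44 cells with Sst. The orange cells lie along the bottom, where Agrp is 0, apart from 3 cells at 1 Agrp UMI and 0 Npy UMIs.

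At the edge of the rule, 36 cells were taken on 1 peptide UMI, 27 of them on Npy and 9 on Agrp, 13 cells had 1 Otp UMI and 17 had 2 Stmn2 UMIs. Just outside it were 84 neurons with Npy or Agrp and no Otp UMI, only 9 of which had 2 or more peptide UMIs, 8 Otp neurons with Npy or Agrp and 3 or more Pomc UMIs, and 15 such cells with fewer than 2 Stmn2 UMIs. Single peptide UMIs also occurred outside the group. Exactly 1 Npy UMI was seen in 2.27% of the other neurons and in 2.22% of 180 fibroblast and vascular cells (cells without Stmn2 and with at least 3 UMIs over 11 markers), compared with 3.64% of the 742 Otp neurons that had 1 Npy UMI and no Agrp UMI. Exactly 1 Agrp UMI was seen in 0.490% and 0.556% of those cells, compared with 1.21% of the Otp neurons that had 1 Agrp UMI and no Npy UMI. Otp, which defines both Otp groups, had exactly 1 UMI in 2.22% of the fibroblast and vascular cells. Cells resting on 1 Otp UMI were 13 of the 141 (9.22%) and 185 of the 601 Otp neurons without Npy and Agrp (30.8%), so single Otp UMIs bear more on the comparison group.

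The cells had a median of 3181 UMIs and 1603 detected genes, against 2823 and 1412 in the Otp neurons without Npy and Agrp, 3535.5 and 1671.5 in the other neurons, and 3828.5 UMIs in the fibroblast and vascular cells. Shares of cells with a UMI move with depth. They are of all UMIs unless given as thinned, that is, after drawing every cell down to 2000 UMIs, which left out none of the 141 cells, 25 of the 601 and 96 of the 3264. Cells with UMIs of both Xist and Y-linked genes, which hold RNA of at least 1 male and 1 female cell, made up 2.84%, 2.33% and 2.85% of the 3 groups. Mixing of cells of the same sex is not seen this way. Most cells had Xist and no Y-linked UMI, namely 122 of the 141, 501 of the 601 and 2366 of the 3264. Of the markers of other cell types, 14 fibroblast and vascular genes summed to 26.7 CPM, the level of a gene's UMIs scaled to a common total of UMIs, against 51.3 in the other Otp neurons, with 8 of them at 0, and 8 macrophage genes to 3.81 against 6.97 CPM, with 6 at 0. The 11 pituitary genes summed to 147 against 72.2 CPM, with 4 at 0, but 1 cell held 59 of their 77 UMIs, and without it the sum was 34.9 CPM. The 6 erythroid genes summed to 322 against 296 CPM. The 13 genes of ventromedial, habenula and thalamus neurons summed to 242 CPM, or 168 without the top cell, against 710 CPM in the other Otp neurons, and with at least 2 Otp UMIs asked of both groups to 253 against 361 CPM. The part of these cells' RNA in the results below was otherwise not tested.

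Calcr, the calcitonin receptor, is the marker named for these cells that the rule did not use. It was found in 64 of the 141 cells, at 1 UMI in 37, 2 in 13 and 3 to 5 in 14. This was 45.4% of the cells against 15.47% of the Otp neurons without Npy and Agrp, 3.98% of the other neurons and 1.11% of the fibroblast and vascular cells, and after thinning 35.5%, 10.8%, 2.43% and 0.581%. Its level was 217 CPM (179 to 261) against 72.7 CPM (61.4 to 85.5) in the other Otp neurons, a ratio of 2.99 (2.32 to 3.85), and 15.3 CPM in the other neurons. It was named for these cells from the same data, so its level is given as a description, and 77 of the cells held no Calcr UMI.

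Against the Otp neurons without Npy and Agrp, the question was what accompanies the peptides within the Otp lineage. Of 3885 genes with at least 20 UMIs expected in the cells, 31 (0.798%) were at least 2-fold higher and 57 (1.47%) at least 2-fold lower. The leading higher gene was Gpx3, a secreted glutathione peroxidase, at 244 against 46.8 CPM, a ratio of 5.22 (3.97 to 6.88), with 42.6% of cells against 11.3%, and 36.2% against 8.68% after thinning. Cited1, a transcriptional co-activator encoded on the X chromosome, followed at 856 (779 to 939) against 202 (183 to 223) CPM, a ratio of 4.24 (3.70 to 4.86). Cited1 was present in 93 of the 141 cells, with up to 20 UMIs. The other leading genes included Rit2, a neuronal Ras-like GTPase, at a ratio of 3.15 (2.33 to 4.25), Gabra5, the alpha 5 subunit of the GABA-A receptor, at 3.10 (2.26 to 4.24), the G-protein subunit Gng4 at 3.08 (2.07 to 4.56), and Phlda1 at 2.98 (2.01 to 4.397). The non-coding 2900055J20Rik stood at 3.73 (2.69 to 5.18) and the long non-coding RNA Snhg11 at 2.17 (1.87 to 2.51). The remaining leaders were Ntng1, Ap3b1 of the AP-3 adaptor complex, Pcbd1, Ptprn, Vat1l and the sodium pump subunit Atp1b1, at ratios between 2.39 and 2.69.

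Many of the 15 genes that led in the other direction encode nuclear factors, whose share over all genes was not counted. Bcl11b, a zinc finger factor, was in 5.67% of the cells with Npy or Agrp against 30.3% of the other Otp neurons (3.55% and 25.3% after thinning), at 28.6 against 237 CPM, 8.28-fold lower (4.97 to 14.9). Nr2f2, an orphan nuclear receptor, had 4 UMIs in all 141 cells and was 12.5-fold lower (4.79 to 46.2). Tcf7l2, a nuclear effector of Wnt signalling, was 4.01-fold lower (2.94 to 5.59) and Tcf4 3.49-fold lower (2.39 to 5.29). The forkhead factor Foxp2 and the factors Lhx9, Nhlh2, Sox1, Bcl11a and Nfib also led, at ratios of 0.109 to 0.325. The secreted proteins Cbln2, 8.96-fold lower (4.66 to 19.8), and Fam19a2, 10.2-fold lower (4.61 to 28.0), were with the matrix protein Vcan, the growth factor binding protein relative Igfbpl1 and the non-coding Gm17750 the leading genes that are not transcription factors. Tcf7l2 and Nhlh2 belong to the ventromedial, habenula and thalamus list, of which 4 genes were measurable here and 3 at least 2-fold lower (1.47% over all genes).

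With at least 2 Otp UMIs asked of both groups, a setting applied to these genes after their values had been seen, 128 cells were set against 416. All 15 leading higher genes were still at least 2-fold higher, at ratios of 2.21 for Calcr to 4.35 for Gpx3. Of the 15 leading lower genes, 14 were still at least 2-fold lower, the exception being Tcf7l2 at 1.995-fold (1.41 to 2.897), but Foxp2, Lhx9 and Sox1 among the 14 were below the measurable limit in this setting. Bcl11b was 9.53-fold lower (5.61 to 17.6) and Tcf4 4.19-fold (2.78 to 6.58), while Cbln2 was 4.57-fold lower (2.32 to 10.2), Nhlh2 2.299-fold (1.30 to 4.37) and Lhx9 2.35-fold (1.05 to 6.17).

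**Figure D2:**
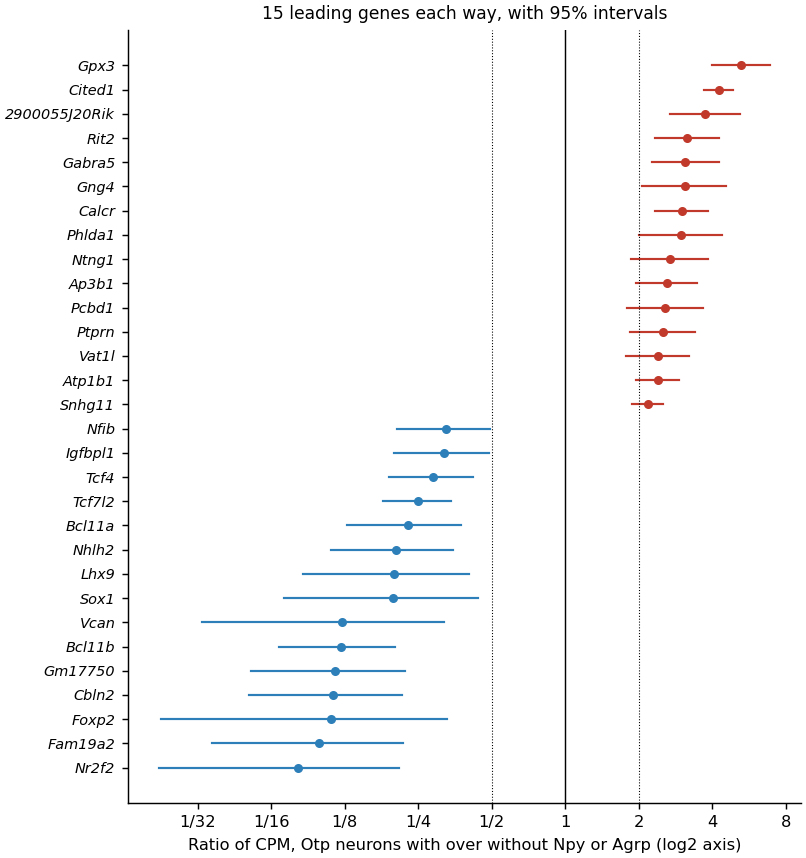
Ratio of CPM in the Otp neurons with Npy or Agrp to the Otp neurons without them (log2 axis) for the 15 leading genes each way, with points for the ratio, bars for the conditional exact binomial 95% interval, a solid line at equality and dotted lines at 2-fold. Gpx3 and Cited1 stand farthest to the right, and Nr2f2 and Fam19a2 farthest to the left.

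Among factors known from Agrp-neurons, Isl1, a LIM-homeodomain factor of ARC peptide neurons, was shared by both Otp groups. It was found in 73.0% of the cells with Npy or Agrp and 71.0% of those without (56.7% and 62.8% after thinning), at 538 (477 to 604) and 638 (603 to 674) CPM, a ratio of 0.843 (0.739 to 0.960), and in 22.8% of the other neurons at 121 CPM. Tbx3, a T-box factor, stood at 126 against 72.7 CPM, a ratio of 1.73 (1.27 to 2.33). Bsx, a homeobox factor needed for Agrp and Npy in the adult, had no UMI in the 141 cells, which allows up to 5.72 CPM, a limit on captured UMIs and not on how many cells express it, and the adult Agrp-neuron genes Corin, Acvr1c, Npr3 and Serpina3n had none either. These 5 genes also had no UMI in the 601 other Otp neurons, so they do not tell the groups apart. Of the 16 genes listed for the Otp lineage and the maturation of Agrp-neurons, 8 were measurable, 2 of them (Cited1 and Calcr) at least 2-fold higher (0.798% over all genes) and none 2-fold lower, with a median log2 ratio of 0.85 against 0.04 over all genes. Sox21 stood at 0.563 (0.334 to 0.905) and Foxp1 at 1.09 (0.824 to 1.43).

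Factors of the surrounding hypothalamic fields were mostly too sparse to compare. Of 17 such genes, 4 were measurable and 3 were at least 2-fold lower (1.47% over all genes), namely Six3 at 2.03-fold (1.67 to 2.48), Nkx2-1 at 2.29-fold (1.61 to 3.35) and Lhx9 at 5.03-fold (2.49 to 11.8). Of 34 timing and regional factors, 17 were measurable, 9 were at least 2-fold lower (1.47% over all genes) and only Zfhx4, a zinc finger homeobox factor, was 2-fold higher (0.798%), at 2.20 (1.498 to 3.20). Its relative Zfhx3 stood at 1.74 (1.47 to 2.06), and Pou2f2 at 1.80 (1.57 to 2.08). Of the 16 Dlx and interneuron factors, 11 had no UMI in the cells, and 3 of the 11 had none in the other Otp neurons either. Dlx2, which promotes GABA neuron fates, had none in the cells against 45.8 CPM in the other Otp neurons. Set at 3 UMIs over the group, Dlx2 was at least 8.01-fold lower, but it was below the measurable limit. Dlx1 had 2 UMIs.

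The glutamate transporter gene Slc17a6 had 1 UMI in the 141 cells, compared with 23.4 CPM in the other Otp neurons and 66.5 CPM in the other neurons. The vesicular GABA transporter gene Slc32a1 was found in 20.6% of the cells against 16.8% (10.6% and 11.5% after thinning), at 62.9 against 58.2 CPM, a ratio of 1.08 (0.711 to 1.60). Of the enzymes of GABA synthesis, Gad2 stood at 21.0 against 59.7 CPM, 2.85-fold lower (1.54 to 5.86). Gad1 stood at 53.4 against 30.4 CPM, a ratio of 1.76 (1.08 to 2.79), but was below the measurable limit. Of the 5 GABA genes, 3 were measurable and Gad2 was the 1 at least 2-fold lower (1.47% over all genes).

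Genes of peptide processing and secretory granules were mostly on the higher side, with 15 of 17 measurable genes above a ratio of 1 (54.8% over all genes). Their median log2 ratio was 0.35 against 0.04 over all genes. Ptprn, a membrane protein of dense-core granules, stood at 2.51 (1.85 to 3.39). Chga stood at 2.01 (1.36 to 2.92), but 1 cell held 40.9% of its UMIs. Scg2 was at 1.99 (1.55 to 2.55), Resp18 at 1.81 (1.52 to 2.14) and Pcsk1n, which encodes proSAAS, an inhibitor of the convertase PC1, at 1.77 (1.66 to 1.88). The convertase gene Pcsk2 was at 0.876 (0.614 to 1.23), Cpe, which trims the cut peptides, at 1.14 (0.939 to 1.38), and Pcsk1 had no UMI in either Otp group. Of 21 measurable general maturation genes, none was past 2-fold, 9 were above a ratio of 1 (54.8% over all genes), and the median log2 ratio was -0.05. Sox4 and Sox11, high in newly born neurons, were 1.79-fold (1.62 to 1.98) and 1.63-fold (1.54 to 1.73) lower, and the growth cone gene Gap43 stood at 1.51 (1.39 to 1.63). Whether the groups differed in maturity was not tested.

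Receptors for metabolic signals were thinly covered. Of 31 hormone and feeding receptor genes and their relatives, 13 had no UMI in the 141 cells, the leptin receptor Lepr, the ghrelin receptor Ghsr and the melanocortin receptor Mc4r among them, each of which was also at or below 2.99 CPM in the other Otp neurons. Of the 13, 4 had no UMI in either Otp group. Of the 7 measurable genes, Calcr was the 1 at least 2-fold higher (0.798% over all genes), and 2 were at least 2-fold lower (1.47%). Igf1r, the receptor of insulin-like growth factor 1, and Socs2, which restrains growth hormone signalling, were lower by 2.29-fold (1.32 to 4.32) and 2.02-fold (1.17 to 3.72). Nr3c1, Ghr, Insr and Gpr101, described next, were below the measurable limit. Nr3c1, the glucocorticoid receptor, had 23 UMIs in 15.6% of the cells against 4.33% of the other Otp neurons, a ratio of 2.52 (1.42 to 4.38), and 13.3% of the fibroblast and vascular cells carried it. After thinning these shares were 6.38%, 3.30% and 7.56%. The growth hormone receptor gene Ghr had 10 UMIs, in 7.09% of the cells against 1.33%, with 24.4% in the fibroblast and vascular cells, and 2.13%, 0.868% and 12.8% after thinning. The insulin receptor Insr had 19 UMIs and a ratio of 1.55 (0.858 to 2.69). The orphan receptor Gpr101 had 14 UMIs, and was at 26.7, 19.4 and 1.08 CPM in the cells, the other Otp neurons and the other neurons.

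Sst was the peptide shared with the other Otp neurons. It was found in 31.2% of the cells with Npy or Agrp and 26.1% of those without (29.8% and 23.3% after thinning), at 805 (730 to 885) and 629 (595 to 665) CPM, a ratio of 1.28 (1.14 to 1.43). With at least 2 Otp UMIs asked of both groups this ratio was 0.968, and with at least 5 Stmn2 UMIs 1.84. In the other neurons Sst was at 12.7 CPM, and 2.05% of those cells and 2.78% of the fibroblast and vascular cells had a Sst UMI. Of the 34 other peptide precursors, 23 had no UMI in the 141 cells, and 12 of the 23 had none in the 601 other Otp neurons either, Crh and Vip among them. Of the 11 found in the other Otp neurons alone, Trh, Penk and Nts had 1, 4 and 21 UMIs there. Avp, the vasopressin precursor, had 1 UMI compared with 797 CPM in the other Otp neurons, where 3.66% of the cells carried it. Pnoc, the precursor of nociceptin, had 22 UMIs in 12.8% of the cells, a ratio of 2.55 (1.42 to 4.51), but was below the measurable limit. Cartpt had 10 UMIs in 5.67%. Cbln4, a secreted synaptic organizer, was in 39.7% of the cells against 20.8% (28.4% and 17.01% after thinning), at a ratio of 1.87 (1.45 to 2.39), so that Cbln4 and Cbln2 went opposite ways.

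**Figure D3:**
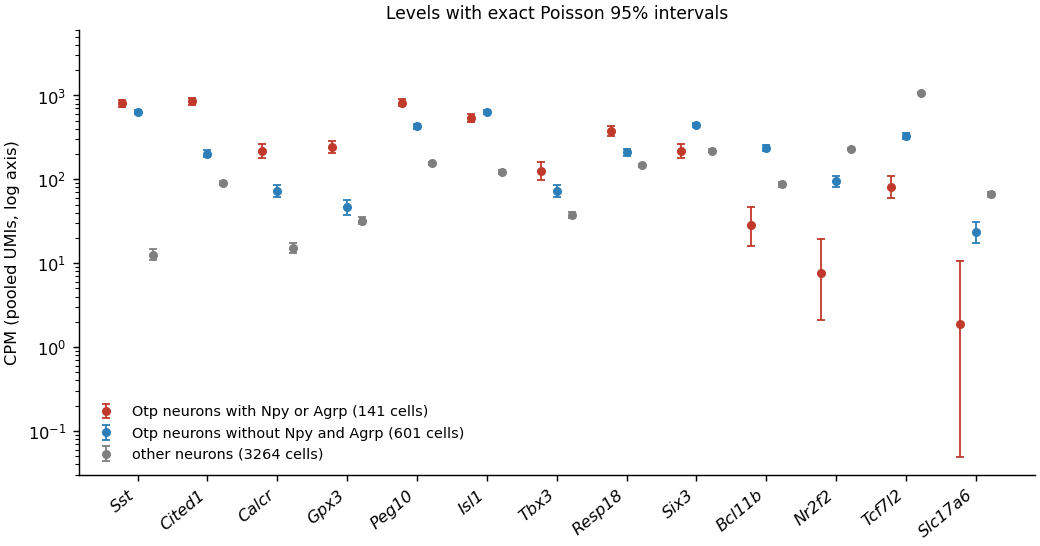
Levels in CPM (log axis, pooled UMIs) of 13 genes in the Otp neurons with Npy or Agrp (red), the Otp neurons without them (blue) and the other neurons (grey), with exact Poisson 95% intervals. Sst and Isl1 are close in both Otp groups, Cited1, Calcr and Gpx3 step down from red to blue, and Bcl11b and Nr2f2 step up.

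Imprinted genes, which are expressed from a single parental copy, summed to 22607 CPM over the 37 listed genes in the table, against 22150 CPM in the other Otp neurons. Peg10, a paternally expressed gene derived from a retroelement, was in 84.4% of the cells against 53.2% of the other Otp neurons (73.8% and 44.8% after thinning), at 816 (741 to 897) against 427 (399 to 457) CPM, a ratio of 1.91 (1.70 to 2.15), and the other neurons had 155 CPM. Of 27 measurable imprinted genes, Calcr and Asb4 were at least 2-fold higher (0.798% over all genes), none was 2-fold lower (1.47%) and 18 were above a ratio of 1 (54.8%). Their median log2 ratio was 0.18 against 0.04 over all genes. Nap1l5, also on chromosome 6, stood at 1.68 (1.49 to 1.90), Ndn at 1.27 (1.19 to 1.37), Dlk1 at 1.15 (1.07 to 1.25), Meg3 at 1.04 and Snrpn at 0.979 (0.875 to 1.09).

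Calcr, Peg10 and Asb4 lie in a single imprinted cluster of chromosome 6, in which Peg10 and Sgce are known as paternally and Ppp1r9a, Asb4 and, in brain, Calcr as maternally expressed. This stretch, GRCm38 positions 3685680 to 5433022, was described after its genes had been seen among the higher ones, and Calcr and Asb4 set its ends. Counts over it therefore partly restate that choice. The stretch holds 39 annotated genes, of which 15 were in the table and 10 had a UMI in the cells. All 6 measurable genes stood above a ratio of 1 (54.8% over all measurable genes) and 4 had an interval above 1 (10.97% over all), namely Calcr at 2.99, Asb4 at 2.25 (1.69 to 2.98), Ppp1r9a, which encodes the actin-binding protein neurabin, at 1.94 (1.54 to 2.43), and Peg10 at 1.91. Casd1 at 1.34 (0.894 to 1.96) and Sgce at 1.32 (0.848 to 2.004) had intervals that include 1, as did, below the level limit, Bet1 at 1.28 (0.691 to 2.25), Pon2 at 1.37 (0.386 to 4.02) and Gng11 at 0.365 (0.0415 to 1.49). Pon3, with 6 UMIs in the cells, stood at 4.60 (1.17 to 19.04).

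**Figure D4:**
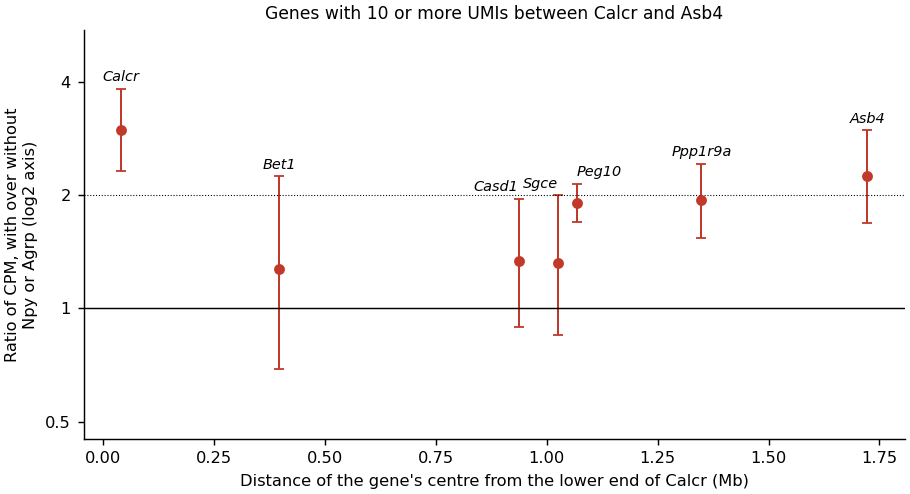
Ratio of CPM in the Otp neurons with Npy or Agrp to the Otp neurons without them (log2 axis) for the genes with at least 10 UMIs between Calcr and Asb4, placed by the distance of each gene's centre from the lower end of Calcr in megabases, with conditional exact binomial 95% intervals, a solid line at equality and a dotted line at 2-fold. Calcr and Asb4 at the ends of the stretch lie above the dotted line, and Bet1, Casd1 and Sgce between them have bars that cross the solid line.

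Set against the 3264 other neurons, 39 of 3905 measurable genes (0.999%) were at least 2-fold higher and 151 (3.87%) at least 2-fold lower. Sst led at a ratio of 63.4 (52.8 to 76.4), followed by Cited1 at 9.49 (8.50 to 10.6), Gpx3 at 7.58 (6.17 to 9.26), Peg10 at 5.28 (4.74 to 5.86) and Isl1 at 4.43 (3.89 to 5.03). Dlk1, an imprinted Notch ligand relative, stood at 3.53 (3.28 to 3.79), and Tox2, Ptprn, Asb4, Tbx3, Gabra5 and Nap1l5 between 3.05 and 3.54. Of these, Tox2 and Dlk1 were within 1.5-fold in both Otp groups, at ratios of 1.41 (1.19 to 1.67) and 1.15, and the tubulin cofactor Tbca, 2.44-fold (2.25 to 2.65) over the other neurons, was at 1.02 (0.933 to 1.12). Tbca lies on chromosome 13 (94788910 to 94842922, plus strand), near Otp, the gene that chose both Otp groups. Whether this bears on its level was not tested. The genes that led in the lower direction include markers of neurons of other regions. Of 13 genes of ventromedial, habenula and thalamus neurons, 8 were measurable and all 8 were at least 2-fold lower (3.87% over all genes), Tcf7l2 by 13.2-fold (9.81 to 18.3), Nhlh2 by 14.9-fold (8.89 to 27.3) and Pou4f1 by 7.78-fold (5.22 to 12.2) among them. Of 22 measurable imprinted genes, 6 were at least 2-fold higher (Peg10, Dlk1, Asb4, Nap1l5, Ppp1r9a and Zdbf2), compared with 0.999% over all genes, and none was 2-fold lower.

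Within the group, cells with Agrp were set beside cells with Npy and without Agrp. The 54 Agrp-positive cells had a median of 3572.5 UMIs, and the 87 with Npy and no Agrp 3088. Markers of other cell types differed between them: the pituitary genes summed to 32.5 against 227 CPM (7 against 70 UMIs), where 1 cell with Npy held 59 UMIs and the sum without it was 36.7 CPM, and the ventromedial, habenula and thalamus genes to 121 against 327 CPM, or 74.1 against 202 CPM without the top cell of each. Their part in the results was not tested. Of 1841 measurable genes, 20 (1.09%) were at least 2-fold higher and 28 (1.52%) at least 2-fold lower in the Agrp-positive cells. Cited1 led at 1369 against 499 CPM, a ratio of 2.75 (2.25 to 3.36), followed by Lrrc58 at 2.50 (1.70 to 3.73), Rit2 at 2.53 (1.59 to 4.10), Caly, an interactor of dopamine receptors, at 2.18 (1.58 to 3.03), and Tbx3 at 2.68 (1.58 to 4.66). The lower leaders were Sst, the cell cycle inhibitor Cdkn1c at 3.76-fold (2.397 to 6.15), Isl1 at 2.53-fold (1.90 to 3.41), Ntng1 at 4.01-fold (1.88 to 9.84) and the protocadherin Pcdh17 at a ratio of 0.255 (0.104 to 0.546). Sst itself was 12.7-fold lower (8.26 to 20.5), at 102 against 1295 CPM. Of the 22 Sst UMIs in Agrp-positive cells, 19 lay in 1 cell with a single Agrp UMI and no Npy, and without that cell Sst was 92.0-fold lower, a log2 ratio of -6.52 (-8.81 to -4.97). Its size moved with the setting: it was 5.70-fold lower after thinning, 7.91-fold with Isl1 asked of every cell, and at least 76.5-fold and 83.0-fold lower with at least 5 Stmn2 UMIs or at least 2 peptide UMIs, where no Agrp-positive cell held Sst.

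The 87 cells with Npy and no Agrp were therefore divided, after these values had been seen, into 41 with Sst and 46 without, so Sst and Agrp describe the split and are not results of it. Npy and Agrp together had a median of 5 UMIs in the Agrp-positive cells, 4 in the Sst-positive cells and 3.5 in those with Npy alone. Cited1 was in 92.6% of the Agrp-positive cells, 69.6% of the cells with Npy alone and 26.8% of the Sst-positive cells, and after thinning in 88.9%, 63.0% and 19.5%. Its level of 128 CPM in the Sst-positive cells was 10.7-fold (6.55 to 18.6) below that of the Agrp-positive cells. Tbx3 had the same order at 53.7%, 30.4% and 7.32%, and 37.04%, 21.7% and 7.32% after thinning. Isl1 had the opposite order, in 57.4% of the Agrp-positive cells, 71.7% of those with Npy alone and 95.1% of the Sst-positive cells (37.04%, 52.2% and 87.8% after thinning), at 283, 550 and 936 CPM. Foxp1, a forkhead factor, was at 60.3, 79.4 and 324 CPM, Ntng1, a membrane-anchored netrin, at 37.1, 56.7 and 272 CPM, Cbln4 at 88.1, 193 and 324 CPM, and Pnoc at 27.8, 11.3 and 106 CPM.

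Other genes that set the whole group apart were found in all 3 sets. Calcr was in 51.9% of the Agrp-positive cells, 41.3% of those with Npy alone and 41.5% of the Sst-positive cells, with intervals that overlap, and Peg10 in 79.6%, 91.3% and 82.9%. Bcl11b was low in each, at 5.56%, 8.70% and 2.44%. Resp18 was in 81.5% of the Agrp-positive cells and in 50% and 53.7% of the others, and after thinning in 57.4%, 39.1% and 48.8%.

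**Figure D5:**
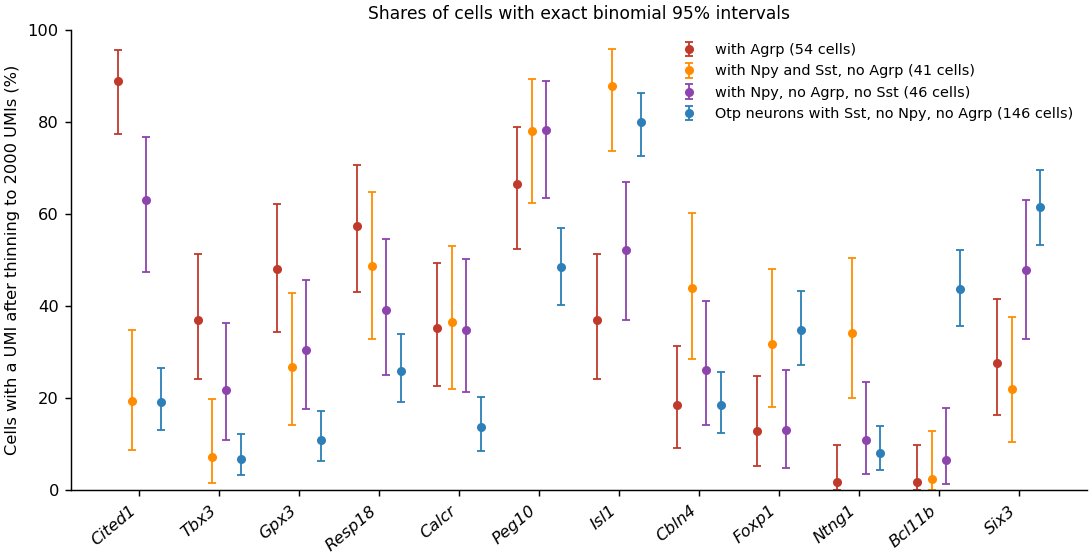
Share of cells with a UMI, in percent after thinning to 2000 UMIs, of 12 genes in the Agrp-positive cells (red), the cells with Npy and Sst (orange), the cells with Npy alone (purple) and the Sst-positive Otp neurons without Npy and Agrp (blue), with exact binomial 95% intervals. Cited1 and Tbx3 are highest in red and Isl1 in orange, whereas Calcr and Peg10 have overlapping intervals in red, orange and purple and lie lower in blue, and Bcl11b is high in blue alone.

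Sst was also present in 157 Otp neurons without Npy and Agrp, so the 41 Sst-positive cells with Npy were compared with these, a comparison added after the values had been seen. Of 1074 measurable genes, 9 (0.838%) were at least 2-fold higher and 16 (1.49%) at least 2-fold lower in the cells with Npy. The ventromedial, habenula and thalamus genes summed to 128 against 308 CPM and the Dlx and interneuron factors to 15.1 against 201 CPM, and their part in the results was not tested. Bcl11b had 1 UMI in the 41 cells and was found in 47.8% of the 157, at 7.54 against 415 CPM, a ratio of 0.0182 (0.000458 to 0.102). Gm17750 had no UMI against 208 CPM, and Tcf4, Six3 and the imprinted hydrolase gene Mest were 5.33-fold (2.52 to 13.5), 3.57-fold (2.24 to 6.03) and 3.41-fold (1.79 to 7.28) lower. On the other side, Snhg11 stood at 4.52 (3.32 to 6.17), Cbln4 at 2.82 (1.85 to 4.27), Peg10 at 2.05 (1.64 to 2.56), Gap43 at 2.03 (1.74 to 2.38) and Pcsk1n at 1.86 (1.62 to 2.13). Ntng1 and Calcr were not among the measurable genes here. Ntng1 stood at 4.89 (2.89 to 8.38), and Calcr was in 41.5% against 15.3% of the cells. Isl1 and Cited1 had intervals that include 1, at ratios of 0.956 (0.778 to 1.17) and 0.800 (0.444 to 1.36), and Sst itself stood at 1.16 (1.04 to 1.30) in cells chosen for it.

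The cells taken on a single peptide UMI were described beside the rest, because single peptide UMIs were also seen in other cell types (above). From 36 cells with 1 peptide UMI to 67 with 2 to 9 and 38 with 10 or more, Cited1 was in 44.4%, 65.7% and 86.8%, Calcr in 22.2%, 55.2% and 50%, and Resp18 in 38.9%, 65.7% and 81.6%. Sst went the other way, in 44.4%, 29.9% and 21.1%, and Isl1 was in 80.6%, 68.7% and 73.7%. Bcl11b was in 8.33%, 2.99% and 7.89%, at 67.5 CPM (29.2 to 133), 16.5 CPM (4.50 to 42.3) and 18.3 CPM (3.78 to 53.5), with 8 of its 15 UMIs in 3 of the cells taken on 1 peptide UMI. The median depth of these sets was 2887, 3181 and 4022.5 UMIs. After thinning Cited1 was in 38.9%, 64.2% and 73.7%, Calcr in 22.2%, 40.3% and 39.5%, Resp18 in 22.2%, 56.7% and 60.5%, Sst in 44.4%, 26.9% and 21.1%, and Bcl11b in 8.33%, 1.49% and 2.63%.

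Likeness between cells was described by the 30 nearest neurons of each cell, over the 1000 most variable genes with the rule's genes left out. Of the neighbours of the 141 cells, 38.4% were cells of the group, which make up 3.52% of all neurons, 31.6% were other Otp neurons and 30.02% were other neurons, which make up 81.5% of them. Of the neighbours of the 601 Otp neurons without Npy and Agrp, 10.98% were cells of the group, 46.3% were Otp neurons of the same kind and 42.7% were other neurons, and 210 of the 601 had no neighbour in the group. Sst was among the genes used here, so the following division is not independent of it. Agrp-positive cells had 26.6% Agrp-positive and 1.42% Sst-positive cells of the group among their neighbours, and the Sst-positive cells without Agrp 2.11% and 38.6%. Of all neurons, Agrp-positive cells of the group made up 1.35% and its Sst-positive cells without Agrp 1.02%. The 9 neurons with at least 2 peptide UMIs and no Otp UMI had 35.9% cells of the group among their neighbours, near the value of the group itself, while all 84 neurons with peptide UMIs and no Otp UMI had 5.40%. In those 9 cells Cited1 was found in 77.8%, Isl1 in 77.8% and Bcl11b in none.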

How the data were processed

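Single-cell RNA-seq was done by the authors on the pooled ARC of 6 Pomc-eGfp embryos with the 10x platform, and 4 sequencing runs of 1 library were deposited as 1 matrix of raw UMI counts, not normalized. Submitters' processing notes name Cell Ranger 2.1.1, STAR 2.4.0, Seurat 2.0 and mm10. The 6465 barcodes held 26277265 UMIs. The filter kept 6351 cells with a median of 3338 UMIs, namely those with between 200 and 4500 genes detected, no more than 10% of UMIs from mitochondrial genes and no more than 10 UMIs of Hba-a1.

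A level is the sum of a gene's UMIs over the cells of a group as CPM, with an exact Poisson interval, shares have exact binomial (Clopper-Pearson) intervals, and ratios of CPM have conditional exact binomial intervals, all at 95% and all for counting error only. Cells of 1 pooled library are not replicates, so no test was run. Genes were called measurable with at least 20 UMIs expected in the smaller group from the level over both groups. Measurable genes were ranked by the interval bound nearest to a ratio of 1, and those where it lay farthest from 1 were called leading. Leading genes also had a UMI in at least 10% of the cells of the higher group, and 15 were taken each way (5 within the cells). The genes of the rule were left out. Other genes named come from 27 lists with 467 genes. The members, rule and lists were chosen with earlier results of these data known, and give no independent support. A value of 0 was given the limit of 3 UMIs. No doublet caller was run, but an alternative left out cells with both Xist and Y-linked UMIs and the 5% of cells with most UMIs. Positions come from GENCODE vM21 and promoter windows from RefSeq, both on GRCm38, the assembly called mm10. Nearest neurons were ranked by the cosine of log-normalized counts, a description added after the values had been seen. The tools were scipy 1.17.1, pandas 2.3.3, numpy 2.4.6 and matplotlib 3.10.9 in Python 3.11.15.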

Additional observations from a re-analysis of the deposited data

How the results depend on the processing

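Of 106 values recomputed under alternative settings, 77 stayed within the main interval (counts within 1.5 times), 28 moved and 1 reversed. No paired analysis was possible because the 4 runs are 1 library and the cells carry no run, and for the same reason no run could be left out. The main values were a share of 19%, 31 and 57 genes higher and lower than in the other Otp neurons, 39 and 151 against the other neurons, and log2 ratios of 0.35 for Sst, 1.58 for Calcr and -0.25 for Isl1 against the other Otp neurons and of -3.67 for Sst between Agrp-positive cells and those without Agrp. With at least 2 Otp UMIs the share was 23.5%, and the log2 ratios of Sst, Calcr and Isl1 were -0.047, 1.14 and -0.46. With fewer than 3 Pomc UMIs asked of both Otp groups, 581 Otp neurons without Npy and Agrp remained. The share was then 19.5%, and 36 and 59 genes were higher and lower than in those. With at least 2 peptide UMIs the share was 14.9% and the Sst ratio within the cells -6.38, a bound. With at least 5 Stmn2 UMIs the Sst ratios were 0.88 and -6.26, the latter a bound, and 99 genes were lower than in the other neurons. With a mitochondrial limit of 5% the Sst ratio was 0.18. Thinning to 2000 UMIs before the rule gave Sst ratios of 0.19 and -2.51 and counts of 15, 23, 16 and 51 genes, in the order above. A limit of 10 expected UMIs gave 88, 154, 92 and 304 genes, and 50 gave 6, 17, 14 and 46, since the limit sets how many genes are counted. With Isl1 in every cell, a setting chosen after seeing the data, 33 genes were lower than in the other Otp neurons, 17 higher and 58 lower than in the other neurons, and the Sst ratio within the cells was -2.98. Without the Agrp-positive cell with most Sst, also chosen after seeing the data, this ratio was -6.52. Where no cause is stated, the cause was not tested. At a median depth of 3181 UMIs, 7 of 31 receptor genes were measurable.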

Other observations

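Membrane genes of excitability were described by 2 further lists against the Otp neurons without Npy and Agrp. Of 33 transmitter receptor subunits, 9 were measurable and 7 of these stood above a ratio of 1 (54.8% over all genes), Gabra5 alone at least 2-fold higher (0.798%). Of 32 voltage-gated and potassium channel genes, 6 were measurable, 5 above a ratio of 1 (54.8% over all genes) and none past 2-fold. The medians of the lists were log2 0.35 and 0.41, compared with 0.04 over all genes.

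Axon guidance genes were divided. Of 49 listed, 16 were measurable, 6 above a ratio of 1 (54.8% over all genes) and 10 below. Ntng1 was the 1 at least 2-fold higher (0.798% over all genes). Robo1, a receptor of the repellent Slit proteins, was the 1 at least 2-fold lower (1.47% over all genes), at 2.402-fold (1.25 to 5.18). Of 18 progenitor and early neuron genes, 8 were measurable and all 8 stood below a ratio of 1, whereas 54.8% of all measurable genes stood above it. Their median log2 ratio was -0.20 against 0.04 over all genes, and Sox2 and Igfbpl1 were at least 2-fold lower (1.47% over all genes). The 8 cell cycle genes summed to 66.7 CPM, compared with 94.6 CPM in the other Otp neurons. Nr5a2, an orphan nuclear receptor chosen after its values had been seen, had 15 UMIs in 9.93% of the cells against 0.998% of the other Otp neurons, and after thinning 4.26% against 0.694%, at a level too low to be counted among the measurable genes.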
